A study of Oryza sativa with 12 samples.

Results

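The ratio of R9308 to Xieqingzao B expression in roots was compared between the heading and tillering stages, transcript by transcript. R9308 is the male and Xieqingzao B the female parent of the hybrid rice Xieyou9308, and both are inbred lines of Oryza sativa. Roots were taken from untreated plants in nutrient solution after about a month in the field, and 2 roots of each genotype and stage were sequenced (12 samples in all). The deposited table pools these roots into 6 combinations of genotype and stage, and the 4 parental pools, from 8 samples, were compared here. A site was used when each parent showed a single base that did not change between the stages, with 10 or more supporting reads in at least 1 parent at each stage. Of 249857 sites, 58579 met this rule, in 15645 of the 28182 transcripts of the table (13831 loci). The parents differed at 24549 of them, shared a base other than the Nipponbare reference base at 33992, and shared the reference base at 38.

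The depth of each site was divided by the total depth of its pool over the same sites, and was then summed over the sites of a transcript. The change reported is the log2 ratio of R9308 to Xieqingzao B at heading minus that at tillering. A positive value means that R9308 had gained on Xieqingzao B by heading. A mapping preference for one parental base drops out of this difference where it is equal at both stages. There is 1 pool per genotype and stage, so the differences have no replicate check and no p-value is given. Intervals are exact conditional 95% intervals at the best covered site of a transcript, the one with the most reads in its lowest pool, and they cover counting error only. Sites of one transcript share pools, and nearby sites share reads.

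Tillering is the vegetative phase in which a rice plant adds side shoots and the crown roots that go with them, and heading is the emergence of the panicle, when growth of new roots slows. A parental ratio that is the same at both stages belongs to a gene that both parents regulate in parallel over development. A changed ratio is what a gene would show whose course over development differs between the parents, but single changes have no replicate check. Such genes are of interest in hybrid breeding because the hybrid inherits the alleles of both parents. The courses of these alleles in the hybrid need not be those seen in the parents.

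The total depth was 6537781 reads in the tillering and 4874992 in the heading pool of R9308, with medians of 55 and 37 reads per site. For Xieqingzao B it was 4859035 and 5476756 reads, with medians of 39 and 45. The highest depth of any site was 7409 reads. The median change over all transcripts was -0.15, the middle 50% of transcripts lay between -0.75 and 0.43, and the outer 5% on each side lay below -2.12 or above 1.63. A change of 2-fold or more was found in 4674 transcripts, 29.9% of those measured. The ratio was higher at heading in 1798 (11.5%) and lower in 2876 (18.4%). A change of 4-fold or more was found in 8.58% of the transcripts, 466 higher (2.98%) and 877 lower (5.61%). In a whole root, fewer cells of a type and less RNA per cell cannot be told apart in these values. Scale factors taken from the median transcript in place of the total depth moved the median change by 0.15, to about 0, and gave 2174 higher and 2420 lower, so 47.3% in place of 38.5% of the changed transcripts were higher. Beside 2-fold, 561 transcripts lay within 0.1 log2 inside the threshold and 615 within 0.1 outside it.

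**Figure D1:**
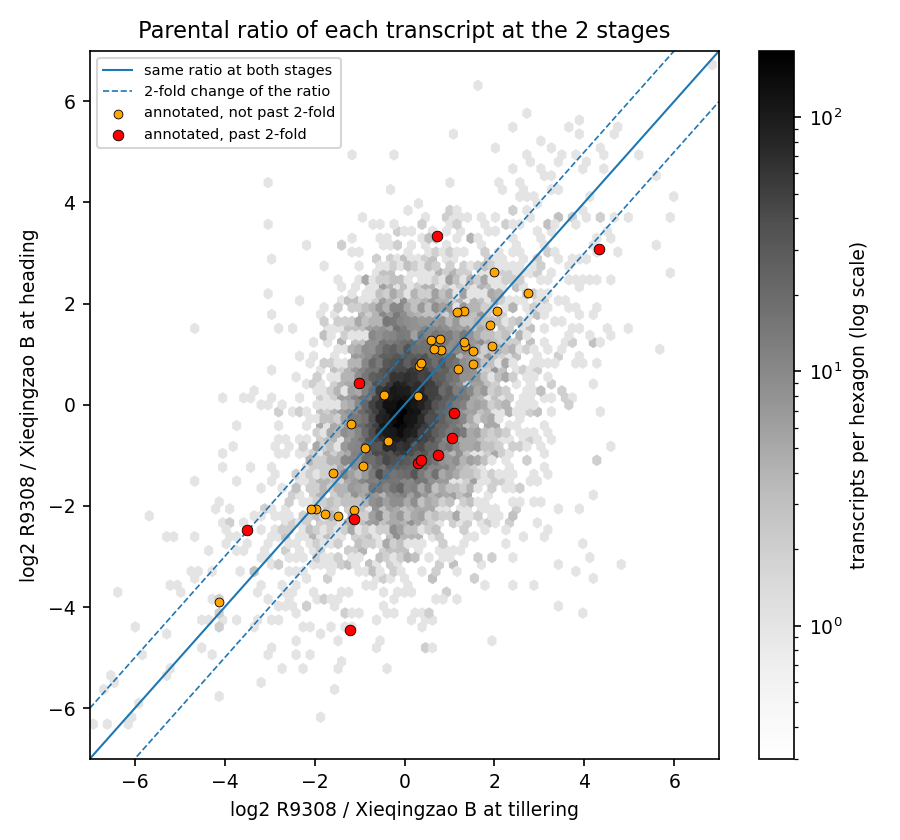
Each hexagon counts transcripts by their log2 R9308 to Xieqingzao B ratio at tillering (x axis) and at heading (y axis), on a grey log scale, with the transcripts annotated by the study as points. The cloud is taller than it is wide, with 27.4% of the transcripts past 2-fold between the parents at heading and 17.4% at tillering. A total of 12 transcripts lie outside the range of 7 log2 units.

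The share and the direction of the changes differed with the level of a transcript, taken as the mean of the 4 parental pools per site. In the 10% of transcripts with the lowest level, 51.6% passed 2-fold, 17.5% with a higher and 34.1% with a lower ratio. In the 10% with the highest level, 23.5% passed, 14.0% with a higher and 9.46% with a lower ratio. Lower ratios outnumbered higher ones in each class but the highest, and the part that depth plays in this was not tested. Among transcripts with at least 20 reads in every pool at the best covered site, 20.3% of 10438 passed, but this limit is tied to the outcome, since a site with few reads in 1 pool could enter only through more reads in the other parent. With 1 to 4 reads in the lowest pool at that site, 23.6% of 832 transcripts had a higher ratio past 2-fold and 53.1% a lower one. With 100 to 199 reads these were 8.27% and 6.76% of 2116, and with 200 or more 11.8% and 3.89% of 1361. Such classes are tied to the outcome in the same way. With 1 site 35.6% of 5400 transcripts passed 2-fold, and with 3 or more sites 25.6% of 6889. The counting interval lay on one side of no change in 3242 of the transcripts past 2-fold (20.7% of all), 1278 higher (8.17%) and 1964 lower (12.6%). It lay wholly past 2-fold in 1112 (7.11%), 493 higher (3.15%) and 619 lower (3.96%).

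**Figure D2:**
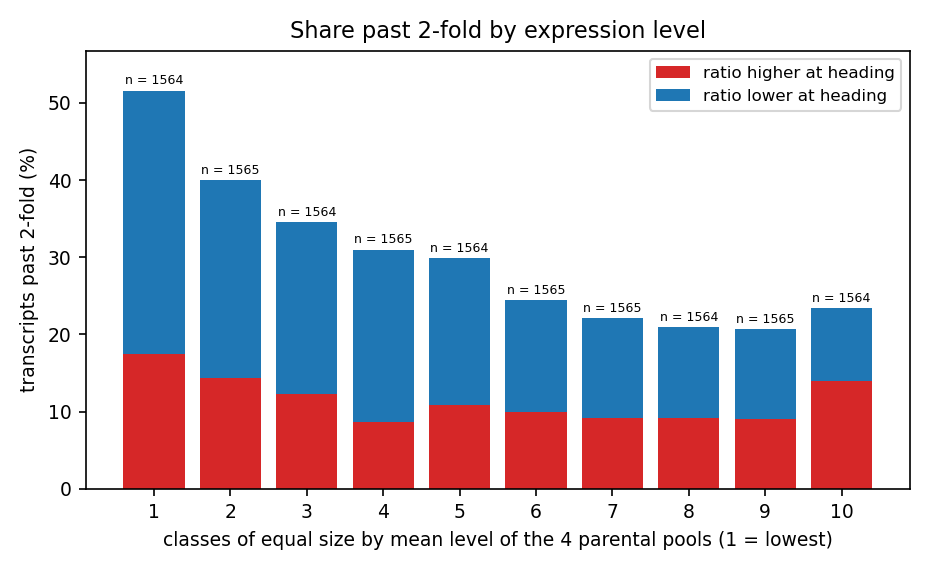
Bars give the percentage of transcripts whose parental ratio changed 2-fold or more, split by direction, in 10 classes of equal size by mean level (1 is the lowest, n above each bar). The share falls from 51.6% in the lowest class to 20.7% in the second highest and is 23.5% in the highest, the one class in which higher ratios outnumber lower ones.

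The stage change within each parent shows how a ratio moved. Over all transcripts, R9308 rose 2-fold or more from tillering to heading in 8.54% and fell in 15.9%, and Xieqingzao B rose in 11.5% and fell in 11.8%. Of the 1798 transcripts with a higher ratio at heading, Xieqingzao B had fallen 2-fold or more in 860 and R9308 had risen 2-fold or more in 640. Of the 2876 with a lower ratio, R9308 had fallen 2-fold or more in 1416 and Xieqingzao B had risen in 1073. Both parents passed 2-fold in opposite ways in 106 and 231 transcripts, and both passed it in the same way, by unequal amounts, in 165 and 193. In 404 and 618, neither parent alone passed 2-fold.

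The parent with the higher level was not the same at both stages in 6531 transcripts (41.7%), counting differences of any size. In 315 of these the parents differed by 2-fold or more at each stage. Of these, 233 were at least 2-fold higher in R9308 at tillering and at least 2-fold higher in Xieqingzao B at heading, and 82 went the other way. With 20 or more reads in every pool these were 44 and 25 of 10438 transcripts. A parental difference past 2-fold at heading only was found in 2832 transcripts, at tillering only in 1260, and towards the same parent at both stages in 1143. Over all transcripts, the log2 ratios at the stages had a Pearson correlation of 0.38 and a Spearman correlation of 0.25 (n = 15645 transcripts, which are not replicates), and these values come from separate libraries of the same lines.

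Of the 6889 transcripts with 3 or more sites, 3290 (47.8%) had every site on the side of the transcript value. Among the 1761 of them with a change past 2-fold it was 1540 (87.5%), but a large summed change by itself makes its sites fall on one side. Sites at which the parents differ can be set against sites at which they share a base, where reads of both parents carry the same letters. In 2123 transcripts with both kinds, the changes had a Pearson correlation of 0.69 and a Spearman correlation of 0.68. Of 664 transcripts past 2-fold at the differing sites, 588 (88.6%) had the same sign at the shared sites, 370 passed 2-fold the same way there and 11 passed it the other way. Both values come from the same 4 pools.

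Most identifiers of the table are not paired with a name in the sources used here, so of the transcripts with the largest changes only 2 in each direction are given. They were taken from those with 3 or more sites, all on one side, and a counting interval past 2-fold, which held 211 transcripts with a higher and 217 with a lower ratio. Os10t0454500-00, on chromosome 10, had 171 R9308 and 595 Xieqingzao B reads at tillering and 421 and 55 at heading, summed over 4 sites. R9308 rose 3.30-fold and Xieqingzao B fell 12.2-fold, and the change of 5.33 (40.3-fold) was between 5.25 and 5.47 at the single sites (interval at position 489, 4.41 to 6.12). The parents shared their base at all 4 sites. This locus is 1 of 4 adjacent measured loci, Os10t0454200 to Os10t0455300, that were all higher past 2-fold (median change 2.88). Os03t0184100-01, on chromosome 3, had 606 and 512 reads at tillering and 212 and 8 at heading over 3 sites. Here the level of Xieqingzao B fell 72.1-fold while R9308 fell 2.13-fold, a change of 5.08 (interval at position 821, 3.33 to 7.27). The sites of this transcript held 2 or 3 Xieqingzao B reads each at heading.

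In the other direction, Os06t0254300-01, on chromosome 6, had 539 R9308 and 39 Xieqingzao B reads at tillering and 6 and 108 at heading over 4 sites. R9308 was 10.3-fold higher than Xieqingzao B at tillering and the lower parent at heading, a change of -7.36 (interval at position 279, -10.35 to -4.81). The sites of this transcript held 1 or 2 R9308 reads each at heading. Os09t0271100-01, on chromosome 9, had 579 and 29 reads at tillering and 45 and 330 at heading over 6 sites, all of which distinguish the parents. R9308 fell 9.59-fold and Xieqingzao B rose 10.1-fold, a change of -6.60 (interval at position 587, -7.17 to -4.26). Single sites lay between -9.82 and -5.69. The site at -9.82 held 2 Xieqingzao B reads at tillering and 1 R9308 read at heading. Among the 10 transcripts with the largest fall of the ratio under the same rule, the higher parent changed in 10 (in 9 with a difference past 2-fold at both stages), R9308 fell 2-fold or more in 10 and Xieqingzao B rose 2-fold or more in 9. Among the 10 with the largest rise, it changed in 8 (in 4 past 2-fold at both stages), Xieqingzao B fell 2-fold or more in 9 and R9308 rose in 5. Both sets were ranked by the change itself, which favours such counts by construction. Over all transcripts the higher parent changed in 41.7%, counting differences of any size.

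The study annotates 38 loci, which it selected for a strong allelic bias in the hybrid. All 38 could be compared, as 42 transcripts. Their ratio was higher at heading in 3 and lower in 8, 26.2% together beside 29.9% of all transcripts, and their median change was -0.15, the same as that of all transcripts. The counting interval excluded no change in 9 of these 11. The bases by which the parents are told apart at the best covered sites of the changed transcripts are given below as the R9308 base, the position counted from 1 at the start of the transcript, and the Xieqingzao B base, because each ratio rests on reads that carry them.
Os07t0617100-01: A252G
Os07t0129200-01: T510A
Os04t0418500-01: C547T
Os07t0158900-01: C669A
Os07t0158900-02: C1059G
Os06t0143400-01: G1231A
Os04t0319600-01: T977C
Os08t0153600-00: A466G
The best covered sites of the remaining 3, Os01t0757051-00, Os07t0618266-00 and Os11t0452400-01, have a base that both parents share.

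**Figure D3:**
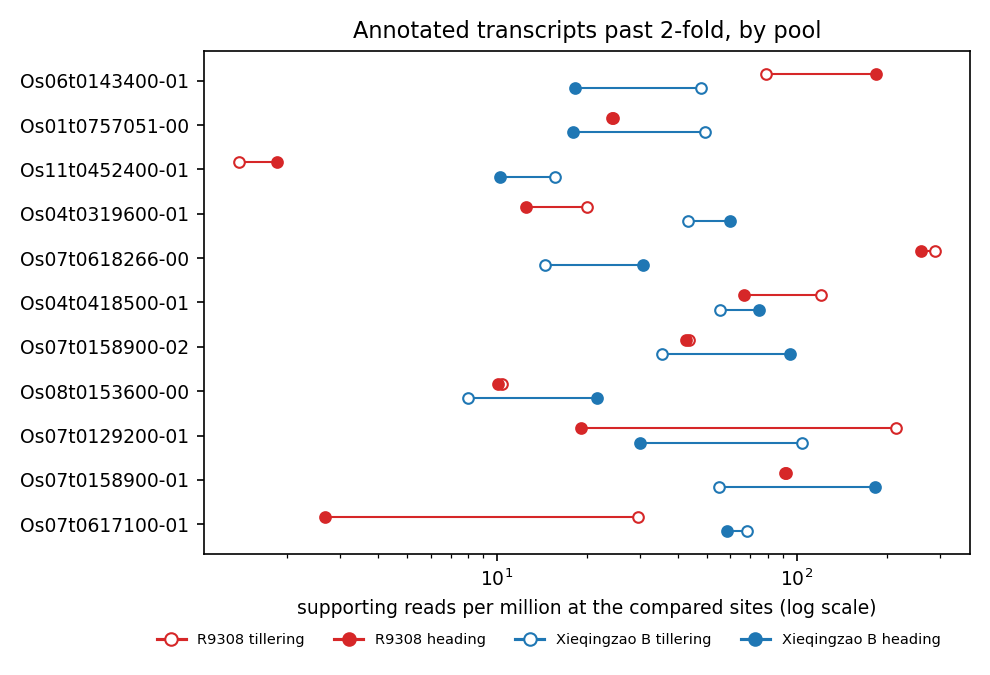
Supporting reads at the compared sites relative to the pool total, as RPM (x axis, log scale), in R9308 (red) and Xieqingzao B (blue) at tillering (open) and heading (filled), for the 11 annotated transcripts past 2-fold, ordered by their change. In Os07t0617100-01 only the R9308 level moves far, in both transcripts of Os07t0158900 only that of Xieqingzao B, and in Os06t0143400-01 the parents move apart.

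Of the 8 defence transcripts (7 loci), 2 had a lower ratio at heading (25% called, beside 29.9% of all transcripts) and none a higher one. Os07t0617100-01 belongs to the plant disease resistance response family, which includes the dirigent proteins that guide the coupling of phenolic radicals. It had 193 R9308 and 332 Xieqingzao B reads at tillering and 13 and 319 at heading, at 1 site. R9308 fell 11.1-fold while Xieqingzao B was 1.17-fold lower, so that the ratio went from 0.43 to 0.046 (change -3.24, interval -4.20 to -2.39). This is the largest change among the annotated transcripts.

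Os07t0129200-01 is similar to PR1a, a small secreted protein that is a classic marker of the salicylic acid response. It had 1402 and 504 reads at tillering and 93 and 164 at heading, at 1 site. Both parents fell, R9308 by 11.2-fold and Xieqingzao B by 3.46-fold, and the higher parent changed from R9308 to Xieqingzao B (ratio 2.07 and 0.64, change -1.70, interval -2.11 to -1.29). For the total expression of Os07t0129200, the study reports no significant difference between the parents. The class 1 pathogenesis-related transcript Os07t0127700-01 had 182 and 36 reads at tillering and 90 and 34 at heading, and its change of -0.34 had an interval that included 0 (-1.15 to 0.49).

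The receptors of the defence list had parental ratios whose counting interval at the best covered site included no change. Os11t0229300-00, similar to an NBS-LRR protein, the class of intracellular immune receptors, was the best covered, with 62 sites. It had 3000 and 4102 reads at tillering and 1998 and 4058 at heading, with a ratio of 0.54 and 0.55, and 31 of its 62 sites lay on either side of no change. Os02t0272900-01, with an NB-ARC domain as in the same class of receptors, had 782 and 86 reads at tillering and 614 and 150 at heading. Its ratio was 6.76 and 4.60, a change of -0.56 with an interval of -1.37 to 0.60 at position 655. With scaling and sums over its 5 sites where the parents differ alone, the change was -0.08. Over its 1 shared site alone, at position 1987, it was -1.75. The chitin elicitor receptor kinase Os09t0511000, which senses fragments of fungal cell walls, had changes of 0.45 and 0.27 in its 2 transcripts (intervals -0.71 to 0.85 and -0.60 to 1.22). Os11t0208800-01, similar to a receptor-like protein kinase, fell 2-fold or more in both parents, from 759 and 1921 reads to 193 and 965, and its change was -0.39 (interval at position 1317, -0.94 to 0.30). Each of these intervals rests on the reads of 1 site and not on all reads of the transcript. Changes of the sizes that they still hold were not detectable at that site alone.

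Of the 10 regulatory transcripts (9 loci), 3 had a lower ratio at heading and none a higher one, about the share of all transcripts that passed 2-fold (29.9%). Os07t0158900 encodes an F-box protein, a class that picks the targets of ubiquitin ligases. In its transcript -01, R9308 had 601 reads at tillering and 444 at heading, and Xieqingzao B had 267 and 997. Relative to the pool totals R9308 moved by no more than 1.01-fold while Xieqingzao B rose 3.31-fold, a change of -1.74 (interval -2.20 to -1.41). Transcript -02 had 286 and 172 reads and then 208 and 519, with a change of -1.46 (interval -1.56 to -0.63). With scaling and sums over sites where the parents differ alone it was -0.87, short of 2-fold, over R9308-reference sites alone -0.88, and over shared sites alone -2.11. The 2 transcripts are of 1 locus and may share reads. Os04t0418500-01, with a zinc finger domain of the RING/FYVE/PHD type, had 785 and 270 reads at tillering and 324 and 410 at heading. Its change was -1.28, with all 8 sites below 0, and the best covered site, at position 547, gave -2.23 (interval -2.88 to -1.59).

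The other regulatory transcripts did not pass 2-fold. The Myb transcript Os02t0271900-01 had 1968 and 506 reads at tillering and 1004 and 643 at heading over 18 sites, with a change of -0.72, 15 sites below 0 and an interval of -1.18 to 0.09 at position 1530. Of the 2 calmodulins, which are calcium sensors, Os11t0669100-01 had 1137 and 1163 reads at tillering and 587 and 579 at heading and a change of 0.65 (interval 0.31 to 0.92). Os07t0681400-01 had a change of -0.34 (interval at position 382, -1.18 to 0.16). Both of its sites lay further below 0 than this sum, with -0.50 at position 382 and -1.65 at position 782. Position 782 held 4 Xieqingzao B reads at tillering. The median of its sites, -1.08, was past 2-fold. For the RING-type transcript Os04t0403200-01, the cyclin-related Os05t0325200-01, the pleckstrin homology-type Os05t0349500-01 and the CK2 regulatory subunit Os10t0564900-01, the changes lay between -0.49 and 0.66, with intervals that included 0.

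Of the 7 transcripts of metabolism and transport (6 loci), 1 had a higher ratio at heading (14.3% called, beside 29.9% of all transcripts). Os06t0143400-01 is similar to acyl-ACP thioesterase, the enzyme that releases fatty acids from their carrier in the plastid. It had 517 R9308 and 233 Xieqingzao B reads at tillering and 894 and 100 at heading over 2 sites. R9308 rose 2.32-fold and Xieqingzao B fell 2.63-fold, and the ratio went from 1.65 to 10.04 (change 2.61, interval at position 1231, 2.24 to 3.31). This was the only annotated transcript in which both parents passed 2-fold in opposite ways. Os03t0829200-01, similar to soluble epoxide hydrolase, had 1007 and 1630 reads at tillering and 322 and 1528 at heading. Its change of -0.96 was just short of 2-fold, with all 9 sites below 0 (interval at position 564, -1.36 to -0.30), whereas transcript -02 of the same locus had -0.29, with 4 of its 11 sites on the side of that value. The peroxiredoxin Os07t0638400-01, of a family that reduces peroxides, had 443 and 85 reads and then 240 and 120, with a change of -0.79 (interval -1.27 to -0.31). The hydrolase Os08t0169800-01, the ABC transporter-like Os08t0398000-01 and the glycoside hydrolase Os04t0474300-01 had changes of 0.53, -0.72 and -0.11, and the intervals of the first (0.44 to 1.55) and the second (-1.74 to -0.12) excluded no change. In Os08t0398000-01 both parents rose 2-fold or more, from 69 and 143 reads to 113 and 582.

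Of the 3 transcripts for RNA modification and protein synthesis, 2 had a lower ratio at heading, beside 18.4% of all transcripts, and 3 are too few to set against that share. Os08t0153600-00 encodes a pentatricopeptide repeat protein, a class that binds RNA in mitochondria and plastids. It had 68 and 39 reads at tillering and 49 and 118 at heading, with R9308 within 1.03-fold and Xieqingzao B 2.68-fold higher (change -1.47, interval at position 466, -3.08 to -0.91). Its 3 sites ran from -2.86 to 0.02. Os04t0319600-01, a subunit of a tRNA methyltransferase complex, had 130 and 211 reads and then 61 and 328 (change -1.13, interval at position 977, -1.48 to -0.34). It fell short of 2-fold under 5 other settings, with -0.75 to -0.99: sites where the parents differ, sites where Xieqingzao B has the reference base, 10 reads in every pool, median scaling, and the best covered site alone. The ribosomal protein transcript Os04t0349500-01 had a change of -0.08.

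Of the 14 transcripts with no known role (13 loci), 2 had a higher and 1 a lower ratio at heading (21.4% called, beside 29.9% of all transcripts), and 10 lay above 0, beside 42.6% of all transcripts. In the non-coding transcript Os01t0757051-00, R9308 had 159 reads at tillering and 118 at heading, and Xieqingzao B had 240 and 98. Relative to the pool totals R9308 moved by no more than 1.01-fold, and Xieqingzao B fell 2.76-fold (change 1.46, interval at position 136, 0.98 to 2.27). This locus is 1 of 4 adjacent measured loci, Os01t0756900 to Os01t0757301, that were all higher past 2-fold (median change 1.71). In Os07t0618266-00, R9308 was 20.02-fold above Xieqingzao B at tillering (1886 and 70 reads) and 8.43-fold at heading (1261 and 168 reads). All 7 of its sites lay below 0, between -1.68 and -0.61, but the best covered site alone gave -0.61 (interval -1.67 to 0.41). The change of 1.04 in Os11t0452400-01 rested on 9 R9308 reads at each stage beside 76 and 56 Xieqingzao B reads, with an interval of -1.14 to 3.67, and with 5 reads added to each pool it was 0.84. The other transcript of that locus had a change of 0.02. The largest changes among the 11 that did not pass 2-fold were higher ratios. The hypothetical transcript Os01t0838400-01 had 74 and 125 reads at tillering and 126 and 183 at heading, with R9308 2.28-fold higher at heading (change 0.81, interval -0.18 to 1.41). Os02t0710102-01 had 393 and 194 reads and then 501 and 231 (change 0.69, interval 0.32 to 1.20), and Os01t0556201-00 had 383 and 222 and then 394 and 248 (change 0.48, interval 0.07 to 0.83). Os01t0273200-00 kept a strong parental difference, with 42 and 543 reads at tillering and 54 and 909 at heading (change 0.22). The UPF0307 transcript Os04t0250700-01 had 224 and 42 reads and then 142 and 26 (change 0.63, interval -0.09 to 2.03).

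Changes were compared along the chromosomes by the order of the locus identifiers, with 1 transcript per locus. Neighbouring measured loci had a Pearson correlation of 0.095 over 13819 pairs, loci 5 apart 0.016 and loci 100 apart 0.00095. Where both neighbours passed 2-fold, 912 of 1447 pairs (63.0%) went the same way, beside 53.8% of 1117 pairs at a distance of 100 loci. Overlapping or near-identical neighbours can share reads, and how far that adds to these values was not tested. The share of loci past 2-fold ran from 28.0% on chromosome 10 to 35.5% on chromosome 11. There were 30 runs of 4 or more adjacent loci that were all lower past 2-fold and 10 that were all higher, with at most 7 loci in a run. Of all 13831 loci, 18.9% were lower and 11.6% higher past 2-fold. How many runs these shares alone would give was not tested.

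A stretch that joins 2 such runs, of 5 and 6 loci, over 3 loci that did not pass 2-fold was chosen after its values were seen. It begins at the PR1a-like locus Os07t0129200 on chromosome 7. Of the 14 measured loci from there on, 11 had a lower ratio past 2-fold at heading and 0 a higher one, with changes between -3.89 and 0.02 and a median of -2.00. The counting interval excluded no change in 10 of the 11. R9308 fell 2-fold or more in 10 of the 14, with a median stage change of -1.59. Xieqingzao B fell 2-fold or more in 3 and rose 2-fold or more in 3, with a median of 0.11. None of the 4 measured loci just before it, which include Os07t0127700, passed 2-fold (changes between -0.65 and -0.16). Because the stretch begins where a run begins, the last of these 4 could not be lower past 2-fold. Further before them in identifier order lies another run of 6 lower loci, Os07t0116600 to Os07t0118200 (median change -2.17).

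**Figure D4:**
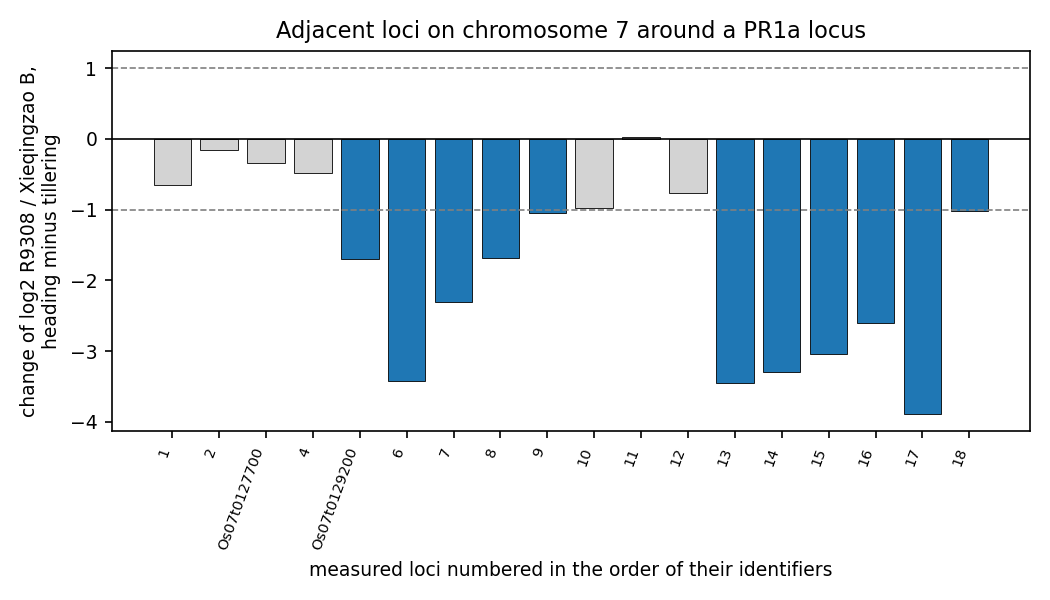
Bars give the change of the log2 R9308 to Xieqingzao B ratio from tillering to heading for 18 adjacent measured loci of chromosome 7 in identifier order, blue where it passes 2-fold (dashed lines). From Os07t0129200 on, 11 of 14 bars pass the lower line, in blocks of 5 and 6 loci, and none passes the upper one.

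The hybrid pools had no part in measuring the parental change, so they give a separate readout. In Xieyou9308 both parental alleles are in the same cells, and the change of their ratio from tillering to heading was measured. Sites were used where the parents differ and both alleles were called in the hybrid at each stage, with together 20 or more reads. Sites with a single allele called in the hybrid at either stage did not enter. Shifts to or from a single allele were therefore not seen. The sites that met these rules numbered 10081. Of them, 2664 were left out because a read pair had the form of a calendar date and may have been altered. Such pairs hold more alternative than reference reads. The 7417 sites left lay in 3226 transcripts. Of these, 663 had a parental change past 2-fold, and in 357 (53.8%) the allele ratio in the hybrid had moved the same way, beside 52.0% of the 2563 transcripts whose parental ratio did not pass 2-fold. The median size of the hybrid change was 0.33 in the first set and 0.29 in the second. For transcripts with a higher parental ratio at heading the share was 57.8% (182 of 315), and for those with a lower one 50.3% (175 of 348). Past 4-fold it was 65.7% (46 of 70) and 49.1% (26 of 53).

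A hybrid change of 2-fold or more in the same direction was found in 32 of the 663 transcripts, and in the other direction in 21. Among the 2563 transcripts whose parental ratio did not pass 2-fold these counts were 59 and 74, and among all 3226 they were 91 and 95. Over the 3226 transcripts, the hybrid and parental changes had a Pearson correlation of 0.080 and a Spearman correlation of 0.056. With the parental change taken at the very same sites these were 0.073 and 0.049. The points share sites and reference but no library, and counting error in the hybrid, with as few as 20 reads, lowers such a value to an extent that was not tested. The effect of leaving out sites with a single called allele was not tested either.

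**Figure D5:**
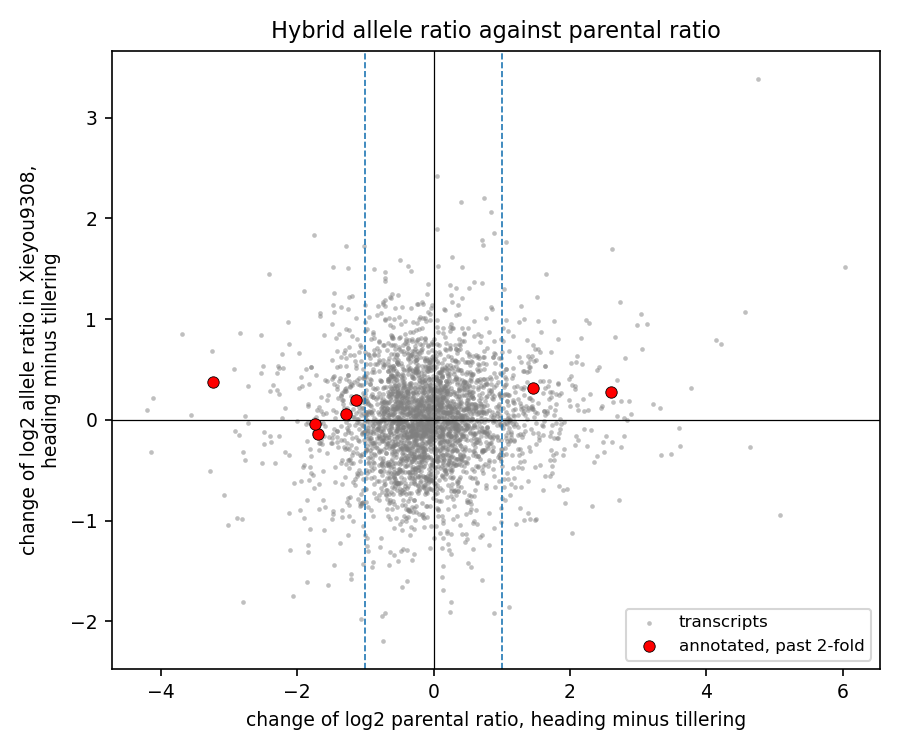
Each point is 1 of 3226 transcripts, with the change of the log2 parental ratio from tillering to heading on the x axis (2-fold, dashed) and the change of the log2 allele ratio in Xieyou9308 on the y axis. The cloud is level across the x axis, and the 7 annotated transcripts past 2-fold with a hybrid value lie within 0.37 of 0 on the y axis. Sites with a single allele called in the hybrid at either stage are not included.

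The 7 annotated transcripts past 2-fold with a hybrid value had the parental sign in 4. Os07t0617100-01 had 8 R9308 and 36 Xieqingzao B allele reads at tillering and 25 and 84 at heading, a hybrid change of 0.37 beside the parental -3.24. Os06t0143400-01 had 178 and 63 reads and then 246 and 72 at position 1316, a change of 0.27 beside 2.61. Os07t0129200-01 had 74 and 25 and then 62 and 23, a change of -0.14 beside -1.70, and Os07t0158900-01 had 60 and 15 and then 85 and 22, a change of -0.04 beside -1.74. The study chose these loci for a strong allelic bias in the hybrid pools themselves, so their hybrid values are not independent of that choice. Of the 10 transcripts with the largest rise of the parental ratio, 4 had a hybrid value. Their hybrid changes ran from -0.94 to 3.39, and 3 had the parental sign. Os03t0184100-01 was the exception, with 57 and 17 allele reads at tillering and 163 and 95 at heading. None of the 10 with the largest fall had a hybrid value.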

How the data were processed

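Per the labels, RNA of 2 roots per genotype and stage was sequenced as paired reads. The authors removed low-quality reads and read ends, used RSEM with the IRGSP assembly of Nipponbare, pooled the roots and called SNPs. The submitters' processing notes name CASAVA 1.8 and SAMtools 0.1.16. The deposited table holds per site and pool the called base, the count of supporting reads and a quality score. Depth was summed and divided as described above, with no pseudocount in the parents and 0.5 reads added to each hybrid allele. Hybrid sites without both alleles called at each stage did not enter. Hybrid pairs with 1 to 12 reference and 13 to 31 alternative reads (date-like) were left out. The depth columns join 2 counts where 2 bases are called, and only single counts entered the parental ratio.

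Named transcripts are all those annotated by the study, plus 2 per direction with 3 or more sites on one side, 20 or more reads in the larger parent at each stage and an interval past 2-fold. Members and lists were chosen with earlier results of these data known. The gene table at hand does not hold the identifiers of the table, so annotation lists for other pathways, markers of green tissue and root markers could not be applied, and the tissue label was not checked against markers. Scripts were tested on simulated data. Intervals came from scipy 1.17.1, tables from pandas 2.3.3 with numpy 2.4.6, and figures from matplotlib 3.10.9, all under Python 3.11.15.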

Additional observations from a re-analysis of the deposited data

Results flagged for a closer look

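In 4 of the named transcripts the parents moved in opposite ways by 2-fold or more between the stages. Over all 15645 transcripts this was so in 106 with a higher and 231 with a lower ratio at heading. All but Os06t0143400-01 were named for the size of their change, which favours such a pattern. The difference was not tested, because there is 1 pool per genotype and stage. In Os06t0143400-01, similar to acyl-ACP thioesterase, the log2 stage change was 1.21 in R9308 and -1.39 in Xieqingzao B, a change of the ratio of 2.61. In Os10t0454500-00 it was 1.72 and -3.61 (5.33). In Os06t0254300-01 it was -6.07 and 1.30 (-7.36), and in Os09t0271100-01 -3.26 and 3.34 (-6.60).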

How the results depend on the processing

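Read depth limits most single values, and roots pooled before deposit leave no replicate spread. No paired analysis was possible because the pooled columns carry no replicate numbers, and no replicate could be left out. Of 20 other settings and 2 more chosen after seeing the data, the following moved a count by over 1.5 times. Fewer transcripts enter under most of them, though not at 4-fold, and the part that this plays was not tested. The transcripts past 2-fold, higher and lower at heading, were 1129 and 1354 of 7917 at sites where the parents differ, 1082 and 1786 of 9840 at shared non-reference sites, 911 and 1163 of 6632 where R9308 has the reference base, and 428 and 331 of 2286 where Xieqingzao B has it. In the last, 56.4% of the changed transcripts were higher, against 38.5%, and the cause was not tested. With 3 or more sites they were 698 and 1063, at 4-fold 466 and 877, and with 20 reads in each parental pool at the best covered site, chosen after seeing the data, 942 and 1177. With 10 reads in each of the 4 pools at a site, 1841 were lower. The changed annotated transcripts, 11 in the report, were 4 with 3 or more sites, 2 at 4-fold and 2 where Xieqingzao B has the reference base. The share of hybrid changes with the parental sign was 58.5% past 4-fold and lay between 52.7% and 54.8% under the other alternatives. Of 151 recomputed values of the 15 named transcripts past 2-fold, 141 stayed past 2-fold in the same direction and 0 changed sign.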
